A study of Mus musculus with 9 samples.

Results

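The genes described are 10 genes of glucose uptake, glycolysis and the response to low oxygen, namely Slc2a1, Hk2, Pfkp, Pfkfb3, Aldoa, Pgk1, Eno1, Ldha, Pkm and Vegfa. They were taken by symbol from a deposited table of 24421 rows, 1 row for each of the 10 genes, and they were followed across 9 RNA sequencing libraries. SB28 is a mouse glioma line that carries GFP and luciferase. The control group (n = 3 libraries) and the BAL101553 group (n = 3) both came from C57BL/6 mice, 6 to 8 weeks old, with SB28 implanted in the brain. Control mice received vehicle. The other mice received BAL101553 (lisavanbulin) by gavage, an oral prodrug that disturbs microtubules and activates the spindle assembly checkpoint, at a dose not given for these libraries in the sources used here. Tumor cells were sorted as GFP+ cells negative for CD45 and CD11b, at day 21 in control mice and at day 33 (per the Results text of the study) or 35 (per its Methods) in treated mice, which matched tumor volume. Treatment and time of growth therefore cannot be told apart. The third group (n = 3) carries the label astrocytes, with brain as tissue, C57BL/6 as strain and BAL101553 as treatment, and its isolation is not described in the sources used here.

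In glycolysis, glucose enters through transporters such as the product of Slc2a1, is phosphorylated by hexokinase, committed by phosphofructokinase, split by aldolase, and carried through phosphoglycerate kinase, enolase and pyruvate kinase to pyruvate, which lactate dehydrogenase can turn into lactate. When oxygen is low, the prolyl hydroxylases encoded by the Egln genes mark HIF alpha subunits less, and the stabilized alpha subunits pair with ARNT and bind DNA at a short core, which raises transcription of many of these enzymes and of Vegfa, the main angiogenic growth factor. Gliomas are known both for aerobic glycolysis and for hypoxic zones, while astrocytes are the main glycolytic cells of normal brain.

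The core bound by HIF is ACGTG or GCGTG, and these letters were searched on both strands in the 250 bases before each RefSeq start (GRCm38.p6), where the palindrome CACGTG counts on both strands. At least 1 match stood in 38.6% of all 32851 windows of this length, and in 15 of the 18 windows of the 10 genes (83.3%). Windows of the same gene can overlap and share their matches, as for Aldoa and Eno1. In the 5 lists of further pathway genes described below, 60% to 80% of windows had a match. Taking only the most upstream window of each gene, 7 of 10 had a match, while those of Aldoa, Pkm and Vegfa had none. The windows of Hk2 (chr6:82774455-82774704, minus strand), Pgk1 (chrX:106186850-106187099, plus strand) and Ldha (chr7:46845554-46845803, plus strand) are printed 5′ to 3′ as examples from the first, the ATP-yielding and the last step. In the values that follow, these genes moved together between libraries, and so did Aldoa, Pkm and Vegfa. Windows other than the most upstream one did hold a match for Aldoa, Pkm and Vegfa. A link between matches and levels was not tested. Capitals mark the matches. The Hk2 and Pgk1 windows lie just outside the GENCODE span of their gene, whereas the Ldha window lies inside that of Ldha (chr7:46841475-46855627).
Hk2: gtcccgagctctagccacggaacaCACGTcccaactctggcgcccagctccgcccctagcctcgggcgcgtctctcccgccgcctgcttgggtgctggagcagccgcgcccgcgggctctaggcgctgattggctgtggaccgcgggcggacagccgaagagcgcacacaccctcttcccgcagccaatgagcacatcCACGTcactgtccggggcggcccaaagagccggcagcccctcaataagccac
Pgk1: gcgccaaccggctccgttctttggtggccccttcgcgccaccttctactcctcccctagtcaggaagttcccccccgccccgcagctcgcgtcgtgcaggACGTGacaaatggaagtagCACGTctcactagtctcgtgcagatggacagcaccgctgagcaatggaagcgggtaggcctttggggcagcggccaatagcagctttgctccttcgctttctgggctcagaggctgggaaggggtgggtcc
Ldha: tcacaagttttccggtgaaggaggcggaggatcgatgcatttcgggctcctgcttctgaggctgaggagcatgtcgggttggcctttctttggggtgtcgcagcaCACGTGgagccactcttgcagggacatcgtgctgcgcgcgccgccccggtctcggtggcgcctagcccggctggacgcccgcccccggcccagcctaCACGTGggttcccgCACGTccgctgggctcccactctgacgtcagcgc
The Hk2 window held 2 matches, the Pgk1 window held 2, and the Ldha window held 5, of which 4 come from a pair of CACGTG palindromes. Such matches describe the letters of these windows and are not evidence of binding.

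Library totals ranged from 24540452 to 28761388 counts in the control group, from 26667789 to 34013875 in the BAL101553 group and from 22919523 to 29230743 in the astrocytes group. Levels are given as CPM, which are counts scaled to a common library size, here after TMM scaling over the 9 libraries. One CPM stood for at least 22.4 reads, so that counting error is small for 9 of the 10 genes. The study calls its ex vivo samples biological replicates, but names fewer per group than the table holds, and the labels do not tie libraries to mice. The p-values measure the spread between these libraries.

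Of the 10 genes, Eno1, which encodes the main enolase, could not be followed. Its row held 0 reads in all control and all astrocytes libraries, and 2, 1 and 0 in the BAL101553 libraries. The row of its near copy Eno1b held 21 to 55 reads. Of the 50-base stretches of Eno1 transcripts, 49.5% also occur in transcripts of other genes, with 48.4% in Eno1b, and how shared reads were counted is not given in the sources used here. Why the Eno1 row was nearly empty was not tested, and the level of Eno1 is not read from this table. Shared stretches make up 68.0% for Pgk1, mostly with its copy Pgk1-rs7, 23.7% for Pkm, 10.4% for Ldha and 8.46% for Aldoa. The levels of these 4 genes are uncertain, by an amount that these percentages do not give. Shared stretches make up at most 0.512% for the other 5 of the 10 genes. Among the partner isozymes compared below, they make up 21% for Ldhb and 8.83% for Pfkm.

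Marker genes placed the libraries. In the 6 SB28 libraries, 15 of 32 markers of brain cell types stayed under 1 CPM, with the summed level of 7 microglia and macrophage markers at 1.92 to 3.89 CPM and that of 6 oligodendrocyte markers at 15.1 to 20.5 CPM. The 6 neuronal markers summed to 56.7 to 87.9 CPM in the SB28 libraries, mostly from Tubb3 and Stmn2, against 36.4 to 44.0 CPM in the astrocytes libraries, while Rbfox3, one of these markers, had 0 reads in SB28 cells. In the astrocytes libraries, 7 astrocyte markers summed to 10108 to 12563 CPM, but 6 oligodendrocyte markers summed to 10495 to 13036 CPM and the microglia and macrophage markers to 382 to 810 CPM. Of the endothelial markers, Cldn5, Slco1a4 and Pecam1 had means of 62.7, 45.3 and 24.1 CPM there. In the SB28 libraries they reached at most 1.45, 0.61 and 1.19 CPM. Tek and Ly6c1 differed less, with means of 18.5 and 30.1 CPM in the astrocytes libraries and up to 9.83 and 28.4 CPM in SB28 libraries. Cdh5 ran the other way, with a mean of 20.5 CPM in the astrocytes libraries and up to 815 CPM in SB28 libraries. The 6 endothelial markers thus summed to 516 to 843 CPM in SB28 libraries, mostly Cdh5, and to 178 to 219 CPM in the astrocytes libraries. This group is therefore called the astrocytes-labelled group, and its libraries carried markers of more than the labelled cell type.

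In SB28 cells from BAL101553-treated mice, none of the 9 genes tested differed from control cells beyond the spread between libraries. Pfkfb3, Vegfa and Pfkp had higher means after treatment, and Slc2a1, Hk2, Aldoa, Pgk1, Ldha and Pkm had lower means. Every one of the 9 genes had overlapping groups. The edgeR quasi-likelihood test called 0 of 9 at an adjusted p of 0.05 and 0 of 9 had an unadjusted p under 0.05, whereas it called 14.7% of the 12633 genes tested. DESeq2 and limma also called 0 of 9. The median log2 fold change over the 9 genes was -0.28, against 0.016 over all genes tested. Groups that did not overlap were seen for 39.7% of all genes tested (19.7% with the BAL101553 libraries lower) and for 0 of these 9.

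**Figure D1:**
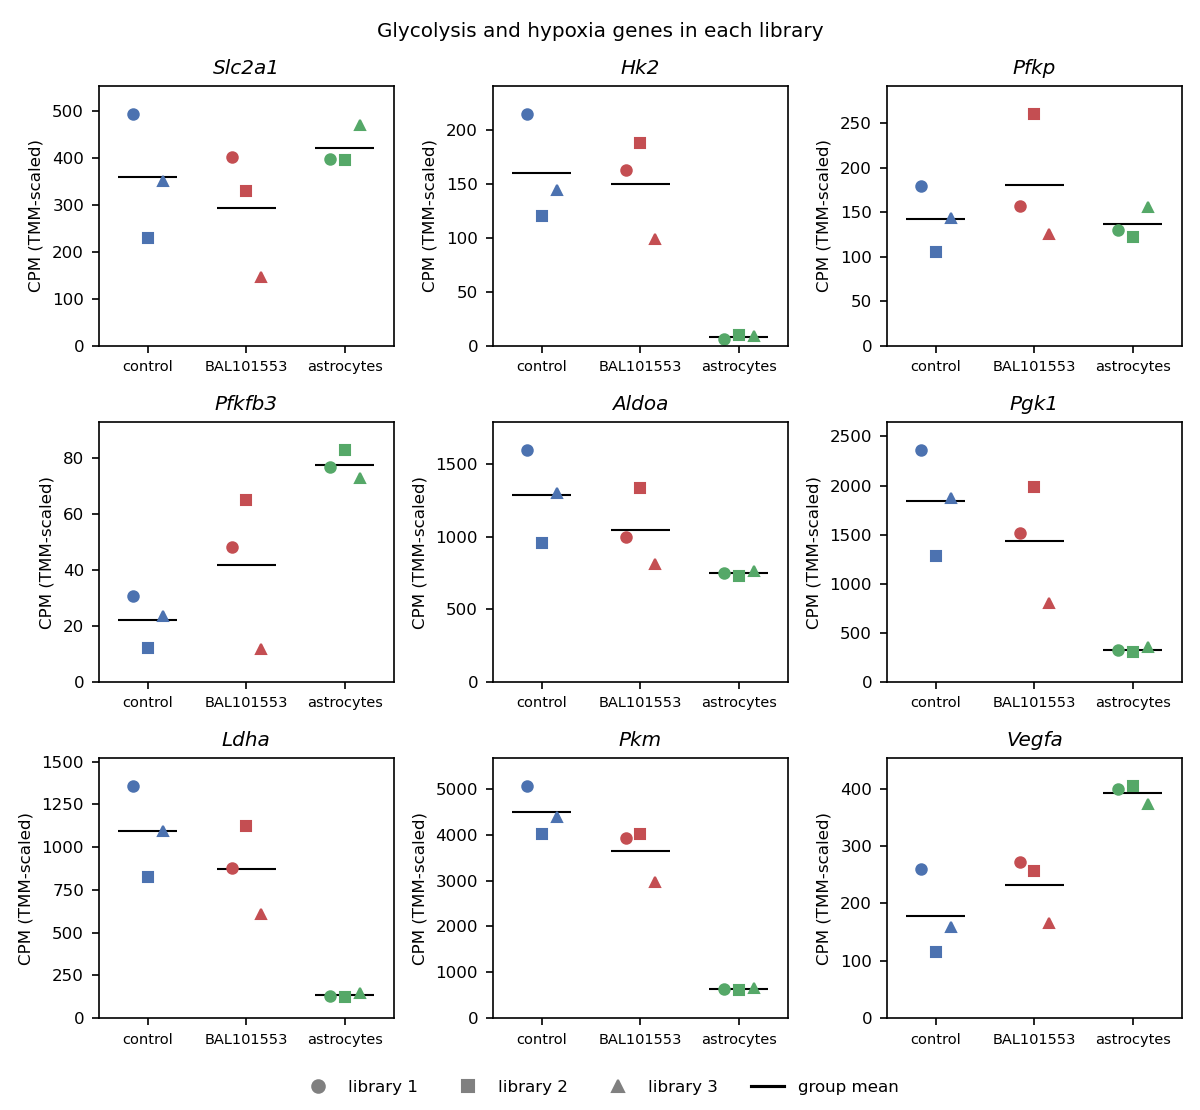
Levels (CPM, TMM-scaled, linear axes from 0) of the 9 genes with reads in each of the 9 libraries, with 1 panel per gene, the library number given by the symbol and the group mean by a line. Control 2 is the lowest control and BAL101553 3 the lowest BAL101553 library in each panel, and the groups control and BAL101553 overlap in each.

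For uptake, Slc2a1 encodes the glucose transporter GLUT1. It stood at 494, 230.5 and 352 CPM in control 1, 2 and 3 and at 401, 331 and 146 CPM in BAL101553 1, 2 and 3. Control 2 and BAL101553 3 were low, and the groups overlapped widely. The log2 fold change was -0.29 ± 0.38 (SE, n = 3 per group, adjusted p = 0.63 by edgeR).

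Hk2 encodes the inducible hexokinase that traps glucose in the cell. Its level was 215, 119.8 and 145 CPM in the control libraries and 162, 188 and 99.3 CPM in the BAL101553 libraries. The lowest value of each group was again in control 2 and in BAL101553 3. With a log2 fold change of -0.08 ± 0.27 (adjusted p = 0.85), Hk2 had the smallest difference of the 9 genes.

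Pfkp is the platelet form of phosphofructokinase, the committing step, and Pfkfb3 makes fructose 2,6-bisphosphate, its strongest activator. Pfkp measured 179.7, 106 and 143 CPM in controls and 157, 261 and 125 CPM after BAL101553, a log2 fold change of 0.35 ± 0.29 (adjusted p = 0.42). Only BAL101553 2 exceeded all controls. Pfkfb3 measured 30.9, 12.2 and 23.6 CPM in controls and 48.3, 65.0 and 11.8 CPM after BAL101553. Here BAL101553 1 and 2 lay above all controls and BAL101553 3 lay below them. The log2 fold change of 0.92 ± 0.57 was the largest of the 9 genes in size, but so was its standard error (adjusted p = 0.29).

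In the middle of the pathway, Aldoa encodes the aldolase of muscle and most other cells, and Pgk1 encodes phosphoglycerate kinase, the first step that yields ATP. Aldoa was measured at 1596, 956 and 1297 CPM in control cells and at 997, 1337 and 810.1 CPM in treated cells (log2 fold change -0.28 ± 0.23, adjusted p = 0.42). Pgk1 was measured at 2362, 1278 and 1875 CPM in control cells and at 1516, 1986 and 803 CPM in treated cells (log2 fold change -0.35 ± 0.33, adjusted p = 0.49). In both genes BAL101553 2 lay above control 3, and control 1 was the highest of the 6 libraries.

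At the end of the pathway, Pkm encodes the muscle-type pyruvate kinase, whose splice forms a count per gene cannot tell apart, and Ldha encodes the lactate dehydrogenase subunit that favors lactate. Pkm was counted at 5064, 4018 and 4398 CPM in controls and 3942, 4022 and 2961 CPM after BAL101553. Only BAL101553 2, barely above control 2, made the groups overlap. Its log2 fold change was -0.30 ± 0.15 (adjusted p = 0.21). Ldha was at 1356, 827 and 1096 CPM in controls and at 875, 1124 and 610.3 CPM after BAL101553, with a log2 fold change of -0.32 ± 0.25 (adjusted p = 0.39).

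Vegfa, the growth factor that draws vessels toward hypoxic tissue, was at 260.5, 115 and 159 CPM in controls and at 271, 256 and 166 CPM after BAL101553. All 3 treated libraries exceeded control 2 and 3, and control 1 lay within the treated range. The log2 fold change was 0.38 ± 0.30 (adjusted p = 0.40).

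Levels were compared between genes per kilobase of the union of annotated exons. In control cells the order of mean CPM per kilobase ran from Pkm (899) through Pgk1 (819), Aldoa (441), Ldha (330.1), Slc2a1 (102), Vegfa (41.6), Hk2 (26.8) and Pfkp (10.7) to Pfkfb3 (2.94). The ranges over libraries overlapped between Pkm and Pgk1, between Aldoa and Ldha, and between Vegfa and Hk2, and did not overlap between the other neighbours. The order of the means was the same in treated cells, where the ranges also overlapped between Pgk1 and Aldoa, between Slc2a1 and Vegfa and between Hk2 and Pfkp, whereas those of Vegfa and Hk2 no longer did. In both groups of SB28 cells the enzymes from aldolase onward thus stood above the transporter, and Pfkp and Pfkfb3 stood last on this scale of levels. The union for Pfkp spans 13401 bases because it adds up all annotated transcripts, which lowers its value on this scale.

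Within each group the genes moved together from library to library, a pattern noticed after the values were seen. All 9 genes had the order control 1, then 3, then 2 from high to low, an order held by 21.2% of all genes tested. All 9 also had their lowest control value in control 2 and their lowest BAL101553 value in BAL101553 3, as did 11.8% of all genes tested. Among the treated libraries, 7 genes were highest in BAL101553 2, and Slc2a1 and Vegfa in BAL101553 1. The ratio of the highest to the lowest library had a median over the 9 genes of 1.79 in controls and 1.90 after BAL101553, against 1.22 and 1.26 over all genes tested. Relative to the group mean of log2 CPM, the median gene stood at 0.41 in control 1, -0.40 in control 2 and 0.039 in control 3, and at 0.17, 0.38 and -0.47 in BAL101553 1, 2 and 3. The median of all genes tested stayed between -0.0065 and 0.010 in these libraries. The genes share libraries, so that 9 genes with the same order are not 9 separate observations.

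Targets that hypoxia is known to induce showed the same libraries as low. Of 22 such genes outside the 10, 21 were lowest in control 2 among controls, 17 were lowest in BAL101553 3 among treated libraries, and 16 were both (72.7%). Adm, which encodes the vasodilator adrenomedullin, was at 32.8, 5.03 and 13.5 CPM in control 1, 2 and 3 and at 25.0, 61.1 and 4.56 CPM in BAL101553 1, 2 and 3. Bnip3, a mitophagy receptor, was at 213, 57.5 and 132 CPM and at 148, 173 and 47.0 CPM. Ankrd37 was at 35.7, 6.81 and 15.05 CPM and at 26.0, 26.5 and 5.95 CPM. These 3 genes were chosen after their values were seen, and in each the low library of a group lay far below the other two. By contrast, 1 of 8 tested genes for HIF subunits and oxygen sensors had both libraries lowest, and Hif1a itself ranged only from 372 to 479.6 CPM in controls and from 369 to 410.2 CPM after BAL101553. Some pathway genes ran the other way, also chosen after their values were seen. Pfkm, the muscle phosphofructokinase, was highest in control 2 (99.8 CPM) and in BAL101553 3 (117 CPM) of its groups, and so was Eno3, the muscle enolase (3.39 and 10.1 CPM).

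**Figure D2:**
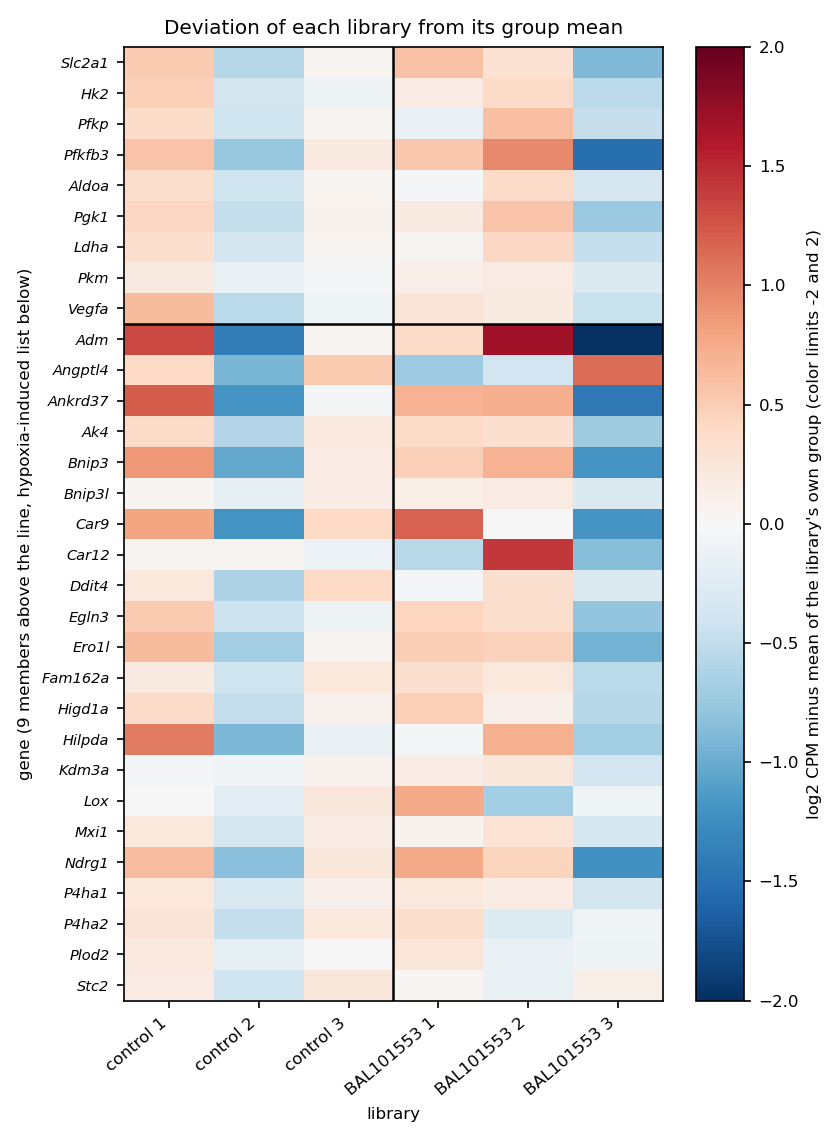
Deviation of each SB28 library from its group mean (log2 CPM, color) for the 9 genes above the horizontal line and 22 hypoxia-induced genes below it, with the control libraries left and the BAL101553 libraries right of the vertical line. The columns of control 2 and BAL101553 3 are blue for all 9 genes, and colors are limited at -2 and 2.

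Other measures differed between these libraries too. Control 2 (28761388 counts) and BAL101553 3 (34013875 counts) were the deepest libraries of their groups. The summed microglia and macrophage markers were 3.89, 2.49 and 3.34 CPM in control 1, 2 and 3 and 2.43, 2.19 and 1.92 CPM in BAL101553 1, 2 and 3. The 7 astrocyte markers, of which SB28 cells themselves carried Gja1 and Aldh1l1, summed to 957, 918 and 956 CPM and to 771, 728 and 666 CPM. Both sums were thus lowest in control 2 and BAL101553 3. The astrocyte sum followed Gja1, at 914, 872 and 920 CPM in control 1, 2 and 3 and at 736, 703 and 641 CPM in BAL101553 1, 2 and 3. Slc1a2, nearly absent from SB28 cells, was instead highest in control 2 among controls (1.53 CPM) and lowest in BAL101553 3 among treated libraries (1.10 CPM). By gene, control 2 was the lowest control for 5 and BAL101553 3 the lowest treated library for 3 of the 7 microglia and macrophage markers, and for 2 and 3 of the 7 astrocyte markers, against 36.5% and 30.6% of all genes tested. The other 3 sums were not lowest in both libraries. The oligodendrocyte markers summed to 20.5, 18.4 and 19.8 CPM and to 15.1, 15.7 and 18.6 CPM. The endothelial markers summed to 797, 709 and 843 CPM and to 587, 516 and 547 CPM, and the neuronal markers to 63.5, 64.5 and 87.9 CPM and to 56.7, 60.0 and 58.1 CPM. The part of depth or of these cells in the pattern was not tested. In a sorted bulk sample, fewer hypoxic cells and less RNA per cell cannot be told apart.

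Around the 10 genes, 72 further genes of the pathway in 5 lists were read in the same fit, of which 69 were tested. After BAL101553, 7 were higher and 3 lower, together 14.5%, against 8.64% higher and 6.09% lower, together 14.7%, of all genes tested. The higher genes were the enolases Eno2 and Eno3, Bpgm, Lox, Stc2, Arnt2 and Nrp2, and the lower ones were Hk1, Dlat and Pdp1. The summed astrocyte markers (918 to 957 CPM in controls, 666 to 771 CPM after BAL101553) and endothelial markers (709 to 843 CPM and 516 to 587 CPM, mostly Cdh5) also differed between these groups without overlap. The astrocyte sum was mostly Gja1 (means of 902 and 693 CPM), which SB28 cells themselves carried. Of the astrocyte markers nearly absent from SB28 cells, Slc1a2 and Slc1a3 had higher means after BAL101553 (1.24 to 1.41 and 0.63 to 1.87 CPM). Aqp4 and Gjb6 had lower means (0.18 to 0.10 and 0.11 to 0.072 CPM), and Gfap was at 0.32 CPM in both groups. The part of these markers in the counts was not tested.

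Among 16 tested isozymes and other glycolysis genes, 3 rose and 1 fell. Eno2, the neuronal enolase, was at 10.6, 10.3 and 9.84 CPM in controls and at 25.3, 30.2 and 22.3 CPM in treated cells. Every treated library lay above every control, with a log2 fold change of 1.34 ± 0.15 (adjusted p = 0.0061). Eno3 rose from 2.59 ± 0.74 to 7.12 ± 2.56 CPM (SD, n = 3; log2 fold change 1.46, adjusted p = 0.026), and Bpgm, which makes 2,3-bisphosphoglycerate, rose by 0.49 on the log2 scale (adjusted p = 0.044). Hk1, the constitutive hexokinase of brain and the partner of Hk2, was at 421, 319.7 and 384 CPM in controls and fell to 286, 217 and 231 CPM (log2 fold change -0.61 ± 0.14, adjusted p = 0.031). Partner isozymes that did not pass the test had log2 fold changes of -0.15 for Slc2a3, -0.22 for Pfkl, 0.29 for Pfkm, 0.67 for Aldoc and -0.16 for Ldhb, with adjusted p from 0.18 to 0.85.

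For the fate of pyruvate and lactate, 0 of 14 genes rose and 2 fell. Dlat, a subunit of the pyruvate dehydrogenase complex, went from 45.4 ± 3.4 to 34.1 ± 2.5 CPM (log2 fold change -0.41, adjusted p = 0.041). Pdp1, the phosphatase that activates that complex, went from 47.6 ± 2.8 to 32.9 ± 3.0 CPM (log2 fold change -0.52, adjusted p = 0.021). The lactate exporter Slc16a3 and the complex's inhibitor Pdk1 had log2 fold changes of 0.44 and 0.16, with adjusted p of 0.66 and 0.79.

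Of the 22 hypoxia-induced genes, 2 rose and 0 fell (9.09%, against 14.7% of all genes tested). Of their log2 fold changes, 18 were above 0 (81.8%, against 51.5% of all genes tested), with a median of 0.27 against 0.016. Lox, which encodes the collagen cross-linking enzyme lysyl oxidase, was at 40.8, 35.1 and 47.9 CPM in controls and at 381, 141 and 212 CPM in treated cells. It showed the largest rise of all 69 genes, with a log2 fold change of 2.57 ± 0.34 (adjusted p = 0.0079). Stc2, a secreted glycoprotein, rose from 6.996 ± 1.55 to 13.2 ± 1.2 CPM (log2 fold change 0.92, adjusted p = 0.024). Neither followed the library pattern of the 9 genes among treated cells, since BAL101553 2 was the lowest library for both.

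Among 8 tested genes for HIF subunits and oxygen sensors, Arnt2, a brain partner of the alpha subunits, rose from 6.18 ± 0.41 to 14.8 ± 7.0 CPM (log2 fold change 1.27 ± 0.31, adjusted p = 0.034). The alpha subunits had log2 fold changes of -0.08 for Hif1a and 0.35 for Epas1, the common partner Arnt of 0.18, the ubiquitin ligase subunit Vhl of 0.04, and the hydroxylases Egln1 and Egln3 of -0.39 and 0.35, none of which passed the test (adjusted p 0.21 to 0.87). Among 9 genes of the VEGF family and its receptors, Nrp2, a co-receptor, rose from 292 ± 19 to 399 ± 31 CPM (log2 fold change 0.46 ± 0.10, adjusted p = 0.024).

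Leaving out single libraries lowered the count of 10 calls, and also the 1860 calls over all genes tested. Without control 1, 3 of the 10 remained, without control 2, 6 did, and without control 3, 2 did. Without BAL101553 1, 6 did, without BAL101553 2, 8 did, and without BAL101553 3, 4 did. Over all genes tested, 458, 1260 and 193 were called without control 1, 2 and 3. Without BAL101553 1, 2 and 3, the calls over all genes were 1133, 1712 and 668. Eno2 and Lox remained in each of these 6 fits. With control 3 and BAL101553 1 left out together, 0 of the 10 were called, and 1 of all genes tested was.

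**Figure D3:**
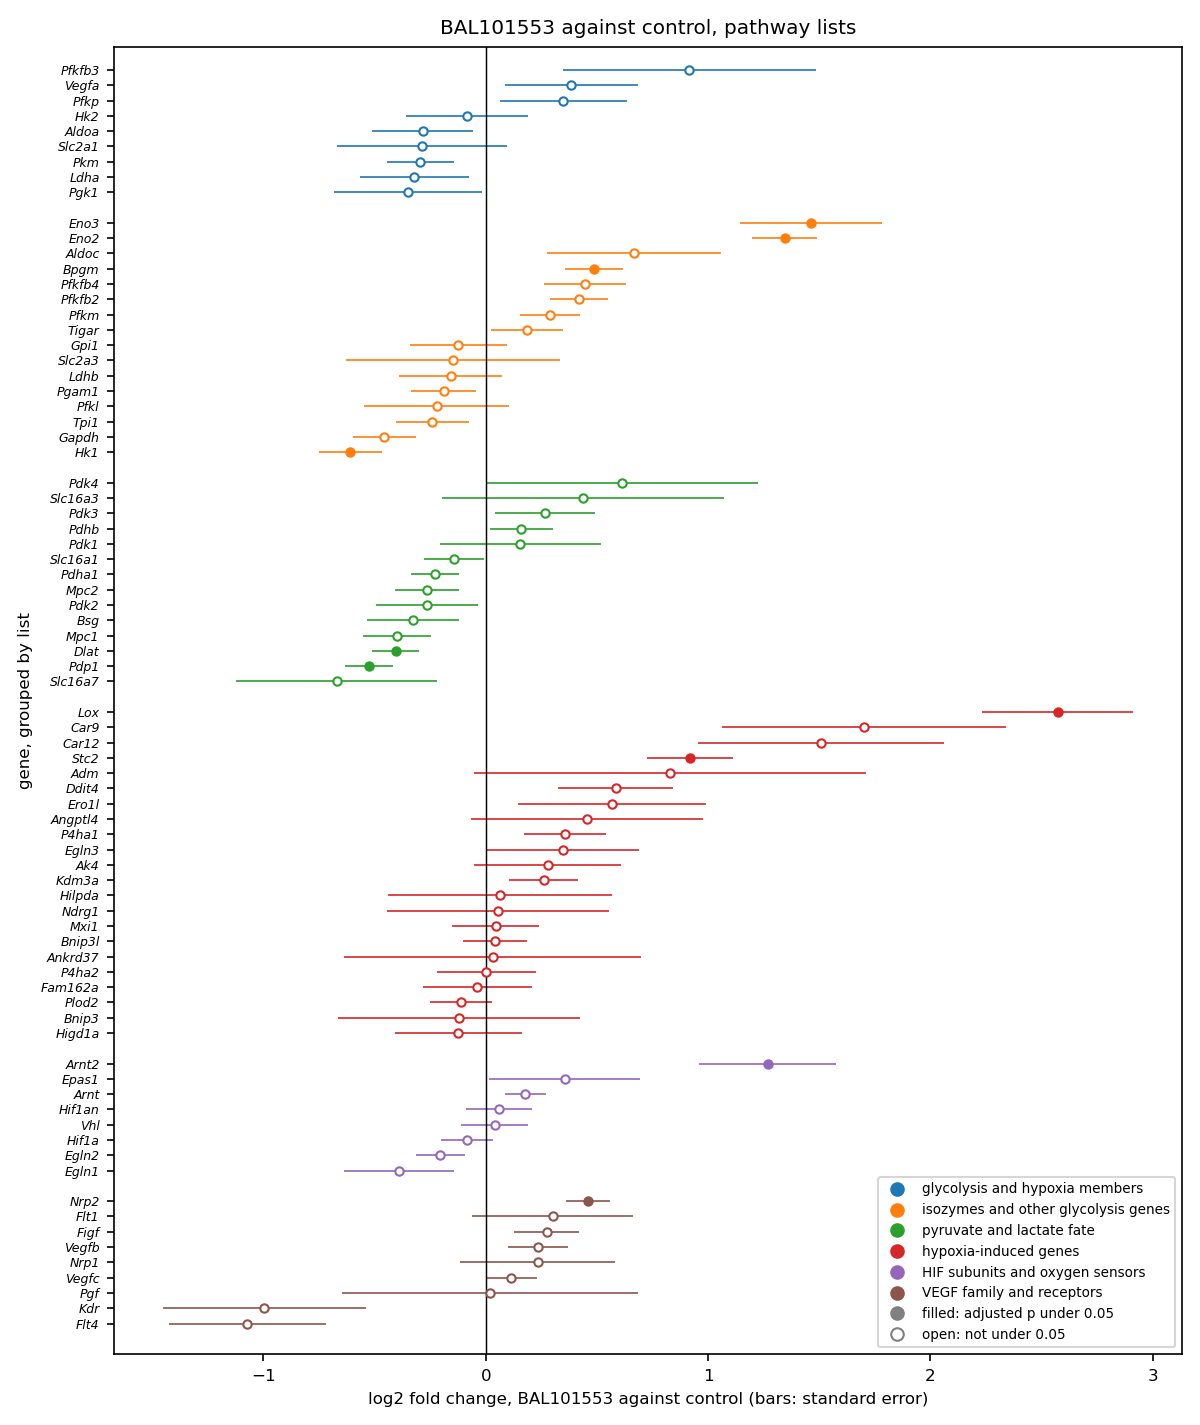
Log2 fold change of BAL101553 against control for the 9 genes tested and the 69 further pathway genes, grouped and colored by list, with bars for the standard error and filled points for an adjusted p under 0.05. All 9 points of the top group are open, and 10 of the 69 others are filled, with Lox the farthest to the right.

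Shares among isozymes were taken within a library, from reads per length, and do not depend on library scaling. In SB28 cells of both groups, Aldoa made up nearly all of Aldoa plus Aldoc (99.5% ± 0.040 in controls and 99.1% ± 0.41 after BAL101553, SD, n = 3), and Ldha nearly all of Ldha plus Ldhb (98.3% ± 0.21 and 98.0% ± 0.60). Slc2a1 made up 91.3% ± 2.2 and 91.1% ± 2.2 of Slc2a1 plus Slc2a3. Hexokinase was mixed, with Hk2 at 42.2%, 34.9% and 35.03% of Hk1 plus Hk2 in controls and at 44.8%, 55.4% and 38.1% after BAL101553. Phosphofructokinase was mixed too. Pfkp made up 14.2% ± 1.0 and 17.2% ± 5.1 of the reads per length for its step, a share that its long exon union lowers and that came to 29.6% ± 0.37 and 35.4% ± 6.7 of the reads without length. Pfkm made up, per length, 26.1%, 49.4% and 34.1% in controls and 40.9%, 31.3% and 53.6% after BAL101553, which put control 2 and BAL101553 3 highest in their groups. Exact two-sided permutation tests of BAL101553 against control gave p from 0.1 to 0.8 for the 5 shares. The p of 0.1 belonged to Aldoa, the only one of these shares whose groups did not overlap, and 3 libraries against 3 cannot go below 0.1.

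**Figure D4:**
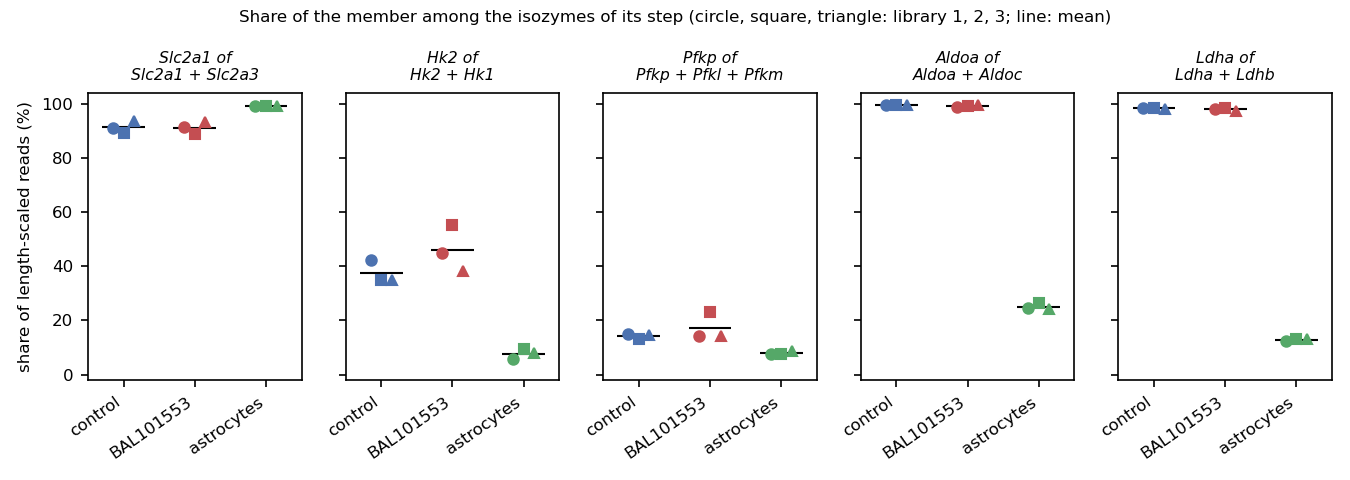
Share (percent of reads per length, axis from 0 to 100) that Slc2a1, Hk2, Pfkp, Aldoa or Ldha takes among the isozymes of its step, 1 point per library with the group mean as a line. Control and BAL101553 libraries overlap for each share but that of Aldoa, while the astrocytes libraries stand apart in each panel, near 25% for Aldoa and 13% for Ldha.

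The astrocytes-labelled libraries share the treatment label with the BAL101553 libraries, and the comparison asks how the 10 genes stand in another brain cell preparation. Hk2, Pgk1, Ldha, Pkm and Aldoa were lower there and Vegfa was higher, which makes 6 of 9 genes called (5 lower, 1 higher) by edgeR's quasi-likelihood test. Of all 15314 genes tested, 85.1% were called (46.3% higher and 38.9% lower), so a call by itself says little in this comparison, and the sizes carry the description. The median log2 fold change was -0.52 over the 9 genes and 0.18 over all genes tested, and fold changes are to be read against that shift of 0.18. Groups did not overlap for 7 of 9 genes, against 87.9% of all genes tested. Beside these values stand the oligodendrocyte markers (10495 to 13036 CPM against 15.1 to 18.6 CPM) and the microglia and macrophage markers (382 to 810 CPM against 1.92 to 2.43 CPM), and their part was not tested. The part of endothelial cells, with markers such as Cldn5 given above, was not tested either.

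The 4 large differences were all downward. Hk2 was at 6.09, 9.79 and 8.90 CPM in the astrocytes libraries, against a BAL101553 mean of 150.01 ± 45.8 CPM (SD, n = 3), 18.6-fold lower (log2 fold change -4.22 ± 0.28, adjusted p = 2.6e-06). Ldha was at 131, 123 and 144 CPM, 6.70-fold lower (log2 fold change -2.75 ± 0.21, adjusted p = 5.7e-06). Pkm was at 639, 603 and 662 CPM, 5.88-fold lower (log2 fold change -2.55 ± 0.15, adjusted p = 1.2e-06). For Pgk1, 327, 308 and 351 CPM made it 4.46-fold lower (log2 fold change -2.16 ± 0.29, adjusted p = 1.7e-04). The highest astrocytes library lay below the lowest BAL101553 library in each of these 4 genes.

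The other 5 genes differed less. Aldoa was at 748, 728 and 764 CPM, just below the lowest BAL101553 library (log2 fold change -0.52 ± 0.17, adjusted p = 0.019), and this call was lost without astrocytes 2 (adjusted p = 0.058), under total library size or upper quartile scaling (adjusted p = 0.11 and 0.091) and with at least 10 counts asked of every library (adjusted p = 0.15). Vegfa was at 399.9, 404 and 374 CPM, above all SB28 libraries (log2 fold change 0.73 ± 0.17, adjusted p = 0.0043). Pfkfb3 was at 76.7, 82.9 and 72.9 CPM and also above all SB28 libraries, but the spread among BAL101553 libraries kept its log2 fold change of 0.87 ± 0.49 from passing (adjusted p = 0.13), and it passed without BAL101553 2 (1.32, adjusted p = 0.035), without BAL101553 3 (0.43, adjusted p = 0.022) and against the control group (1.77, adjusted p = 2.9e-04). Slc2a1, with 398, 397 and 470.3 CPM, and Pfkp, with 131, 122 and 156 CPM, overlapped the BAL101553 libraries (log2 fold changes 0.50 and -0.44, adjusted p = 0.18 and 0.12), although Pfkp passed without BAL101553 3 (-0.64, adjusted p = 0.026).

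The astrocytes-labelled libraries had another order of levels. Mean CPM per kilobase ran from Aldoa (256) through Pgk1 (146), Pkm (127), Slc2a1 (120.3), Vegfa (91.6), Ldha (40.05), Pfkfb3 (10.3) and Pfkp (10.2) to Hk2 (1.38). Ranges overlapped between Pkm and Slc2a1 and between Pfkfb3 and Pfkp, and not between other neighbours. Within this group the libraries differed little, with the median of the 9 genes between -0.073 and 0.099 of the group mean of log2 CPM.

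Several of the genes had a partner isozyme that was higher in the astrocytes-labelled libraries. Aldoc, the brain aldolase of astrocytes, was at 2584, 2268 and 2691 CPM against 15.2, 11.1 and 5.02 CPM in the BAL101553 libraries (log2 fold change 7.88, adjusted p = 8.4e-07), so that Aldoa made up 25.0% ± 1.2 of the aldolase pair. Ldhb, the lactate dehydrogenase subunit that favors pyruvate, was at 433, 389 and 451 CPM against 7.97, 8.10 and 7.96 CPM (log2 fold change 5.69, adjusted p = 8.2e-09), and Ldha made up 12.9% ± 0.31 of that pair (23.8% ± 0.50 without length). Pfkm was higher by 1.64 on the log2 scale (adjusted p = 7.3e-06) and made up 79.9%, 79.8% and 79.4% of phosphofructokinase reads per length, with Pfkp at 7.94% ± 0.59. Without length, Pfkm made up 58.5% ± 0.79 and Pfkp 23.4% ± 1.5 of these reads. Hk1 was lower as well (log2 fold change -0.82, adjusted p = 2.9e-04, against -4.22 for Hk2), and Hk2 made up 7.67% ± 1.88 of the hexokinase pair. Slc2a3, the neuronal-type transporter, was lower (log2 fold change -3.15, adjusted p = 3.3e-04), and Slc2a1 made up 99.2% ± 0.083 of that pair. Each of these 5 shares stood apart from all BAL101553 libraries, with an exact two-sided permutation p of 0.1, the smallest that 3 against 3 allows (0.17 after adjustment over the 10 tests of shares). Tpi1, Pgam1, Pfkl and Eno2 passed the test as lower (log2 fold changes -1.55, -1.95, -1.06 and -0.86), although Eno2 was higher than in the control group (0.47, adjusted p = 0.0052).

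A few isozymes had almost no reads in SB28 cells. The liver-type pyruvate kinase Pklr had 0 reads in all 6 SB28 libraries and 4.79, 3.71 and 5.74 CPM in the astrocytes libraries. Hk3, a hexokinase of myeloid cells, had 0 to 2 reads in the SB28 libraries and 3.15, 6.01 and 4.89 CPM in the astrocytes libraries. The values of Hk3 had the same order over the astrocytes libraries as the summed microglia and macrophage markers (382, 810 and 586 CPM), and the part of these cells was not tested.

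Of the 72 further pathway genes, 24 were higher and 37 lower (84.7%, against 85.1% of all genes tested). For pyruvate and lactate, 6 were higher and 6 lower of 14 (85.7% called). Pdk2, Slc16a7 and Pdk4 were higher by 4.77, 4.51 and 3.56 on the log2 scale, and the lactate exporter Slc16a3, Pdk1 and Slc16a1 had log2 fold changes of -2.67, -1.51 and -1.13. Among the 22 hypoxia-induced genes, 16 were called (72.7%). Of these, 13 were lower, led by Lox (-6.95), Egln3 (-5.29) and Stc2 (-4.29), and 3 were higher, namely Ndrg1 (2.25), Bnip3l (0.999) and Mxi1 (0.65). Ndrg1 is also a gene of myelinating cells, and the oligodendrocyte markers stood at 10495 to 13036 CPM in the same libraries, whose part in its level was not tested.

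The HIF subunits themselves differed by member. Hif1a was at 79.1, 85.0 and 74.9 CPM in the astrocytes libraries against 410.2, 384 and 369 CPM in the BAL101553 libraries (log2 fold change -2.32, adjusted p = 1.8e-07). Epas1, the HIF-2 alpha subunit known from endothelium and astrocytes, was at 400.2, 404 and 387 CPM against 44.3, 36.1 and 69.4 CPM (log2 fold change 2.95, adjusted p = 7.7e-06). Hif3a had 0 to 4 reads in the SB28 libraries and 17.2, 22.7 and 26.4 CPM here. Arnt was lower (-1.10) and Arnt2 higher (4.29), Vhl was higher (1.46), and the lower level of Egln1 (-0.53) lost its call in 11 of 16 alternatives. In the VEGF family and its receptors, 7 of 9 genes were called (77.8%, against 85.1% of all genes tested). Of these, 6 were lower (38.9% of all genes tested were), led by Figf (-4.83), Nrp2 (-4.43) and Vegfc (-2.90). The receptor Kdr was higher (4.44), and so was Vegfa, which is outside these 9, as given above. The part of endothelial cells in the levels of Kdr and Epas1 was not tested.

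**Figure D5:**
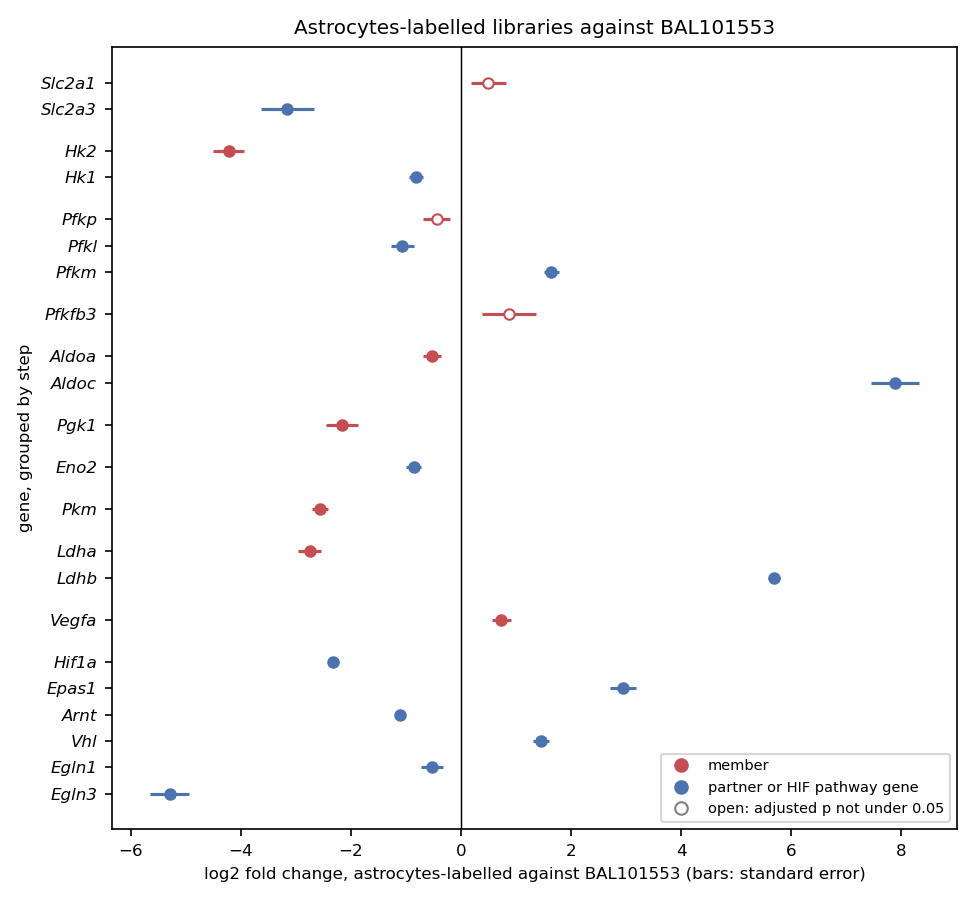
Log2 fold change of the astrocytes-labelled against the BAL101553 libraries for the 9 genes (red), their isozyme partners and HIF pathway genes (blue), ordered by step, with bars for the standard error and open points where the adjusted p was not under 0.05. Aldoc (7.88) and Ldhb (5.69) lie far to the right of Aldoa and Ldha, and Hif1a (-2.32) and Epas1 (2.95) lie on opposite sides of 0.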

How the data were processed

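For sorted SB28 cells the study describes stranded RNA sequencing with 50-base reads. It does not describe the astrocytes-labelled cells. The authors mapped the reads with TopHat and counted them with HTSeq and featureCounts, and they deposited whole-number counts per gene without normalization. The submitters' processing notes name TopHat, HTSeq 0.6.1 and the mm10 build, and no other counter. The annotation behind the table and its treatment of shared reads are not given in the sources used here. All 9 count columns belong to labelled libraries, and none of them was an identical copy, since replicates differed by 14.3 to 64.9 chi-square units per degree of freedom. The paper states 2 ex vivo samples per group, called biological replicates, whereas the table holds 3. Its data statement also names a deposit other than the one used here.

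The analysis ran in R 4.3.3. It used edgeR 4.0.16 (TMM, filterByExpr, quasi-likelihood test, two-sided), limma 3.58.1 and DESeq2 1.42.0. Only the groups compared entered a fit, p-values were Benjamini-Hochberg adjusted over all genes tested, and the threshold was 0.05. The SE of a log2 fold change was derived from its F statistic, as its size over the root of F. Isozyme shares were compared with exact permutation tests. Gene lengths, positions and 50-base stretches came from GENCODE vM21 (GRCm38), and promoter windows from RefSeq. The procedure was tested on simulated data. Named genes are the 10 genes, their isozyme partners, Hif1a, Epas1, Arnt, Vhl, Egln1, Egln3 and, per list and comparison, up to 3 called genes with the largest rise and fall. Any other gene was chosen after its values were seen, such as Ankrd37, Adm and Bnip3. Markers are given mostly as sums. The 10 genes and the lists were chosen with earlier results of these data known. Alternatives were other tests, scalings and filters, a joint fit, each library left out, control 3 and BAL101553 1 left out together, the control group as reference, shares without length, and the replicate number as a block.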

Additional observations from a re-analysis of the deposited data

How the results depend on the processing

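The count of 0 of the 9 genes called for BAL101553 against control was 0 under all 16 alternatives, with a lowest adjusted p of 0.068 (Pfkfb3). Directions were less firm: Slc2a1 changed sign without control 1 (0.0076) or BAL101553 3 (0.038), as did Hk2 (0.18 and 0.14), Slc2a3 (0.23 and 0.26) and Pfkl (0.098 and 0.018), and with 1 library left out their log2 fold changes ran from -0.58 to 0.038, -0.28 to 0.18, -0.46 to 0.26 and -0.49 to 0.098. Those of Pfkp ran from -0.012 (without BAL101553 2) to 0.56, those of Hif1a from -0.16 to 0.031 (without control 1), with 0.0019 under total library size, and those of Vhl from -0.0487 to 0.19, with -0.066 without control 3 and BAL101553 1 together. The difference in the share of Slc2a1 ran from -1.23 to 1.003 percentage points and turned positive without control 3 and without BAL101553 2, and that of Ldha ran from -0.59 to 0.0025 (without BAL101553 3). The number of pathway genes called, 10 in the fit reported, was 2 to 9 when 1 library was left out (2 to 8 of the 10 among them) and 0 when control 3 and BAL101553 1 were left out together. A fit without a library rests on fewer samples, and no other cause was tested. Over all genes, calls ranged from 1 without control 3 and BAL101553 1 together, and 193 without control 3 alone, to 3022 with all 9 libraries in one model (1860 in the fit reported), DESeq2 called 2832, and total library size moved the higher share of calls from 58.7% to 77.4%.

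For the astrocytes-labelled libraries, 5 to 8 of the 9 genes were called over the alternatives. Eno2 turned to 0.47 against control. The median of all genes was 0.39 under total library size. Hk2, Pgk1, Ldha and Pkm (lower) and Vegfa (higher) kept their calls and direction in all 16 alternatives.

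The values do not settle whether the replicate numbers pair the libraries. Deviations of same-numbered control and BAL101553 libraries correlated at 0.15, -0.0069 and 0.15. Control 1 and control 3 correlated best with the BAL101553 library of their own number, and control 2 correlated best with BAL101553 3. With the replicate number as a block, 0 of the 9 genes and 10 pathway genes (9 of the 10 reported) were called for BAL101553 against control, with 1371 calls over all genes, and 7 of the 9 genes for the astrocytes-labelled libraries, with Pfkfb3 added.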

Other observations

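Some pathway genes outside the named set, chosen after their values were seen, add to the account. Car9, a carbonic anhydrase of hypoxic tumor cells that keeps the cell from acidifying, was at 10.5, 2.64 and 8.004 CPM in control 1, 2 and 3 and at 41.5, 18.5 and 8.07 CPM in BAL101553 1, 2 and 3 (log2 fold change 1.70 ± 0.64, adjusted p = 0.11 by edgeR). Car12, a related enzyme, was at 13.7, 13.6 and 12.2 CPM and at 19.6, 76.3 and 15.9 CPM (1.51 ± 0.55, adjusted p = 0.10). Every BAL101553 library lay above every control for Car12, with BAL101553 2 far above the rest. Flt4, the receptor for VEGF-C and VEGF-D, had 26.6 ± 9.0 CPM in controls and 12.5 ± 5.1 CPM after BAL101553 (-1.07 ± 0.35, adjusted p = 0.076), and it was called by DESeq2, with all 9 libraries in one model and with the replicate block.

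Mpc1 and Mpc2, which form the carrier of pyruvate into mitochondria, had 10.6 ± 1.5 and 16.5 ± 2.6 CPM in the BAL101553 libraries (SD, n = 3) and 117 ± 2.1 and 34.9 ± 2.6 CPM in the astrocytes-labelled libraries. Mpc1 was higher there by 3.44 on the log2 scale (adjusted p = 5.8e-08), and Mpc2 by 1.05 (adjusted p = 1.0e-04). Gpi1, the isomerase between hexokinase and phosphofructokinase, had 419.8 ± 114 CPM and 384 ± 14 CPM in these groups (log2 fold change -0.16, adjusted p = 0.42).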
